A study of Mus musculus with 7 samples.

Results

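The genes described here are 54 homeobox and paired-box genes that lie outside the Hox clusters, of 27179 genes in the count table. They were listed by name, as developmental transcription factors, with earlier results of these data known, so the shares below are not independent evidence. The libraries came from lung alveolar macrophages of C57BL/6 mice, isolated by flow cytometry, and the polyA RNA of each was sequenced. Suz12 cKO macrophages (3 libraries, each given as a separate biological replicate) came from chimeras that had received marrow at 90% Suz12 cKO Ly5.2 and 10% wild type Ly5.1. Wild type macrophages (4 such libraries) came from chimeras with 90% wild type Ly5.2 and 10% wild type Ly5.1 marrow. All recipients were lethally irradiated Ly5.1 mice, so every chimera carried the same share of wild type Ly5.1 competitor marrow, and host alveolar macrophages that survived irradiation would also be Ly5.1. The Cre line, the deleted exons, the age of the mice, the time after transplantation and any gate on the Ly5 alleles are not stated in the labels.

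Homeobox genes encode transcription factors that bind DNA through a homeodomain, and they give cells their position and organ identity in the embryo. In most adult cells the genes for other organs are silent, and many of them are held so by Polycomb repressive complex 2, which methylates lysine 27 of histone H3. SUZ12 is a core subunit that this complex needs. The TALE genes among them (the Meis, Pbx and Irx genes) encode a homeodomain with an extra loop, and MEIS and PBX proteins bind DNA together with HOX proteins. Pax2, Pax5 and Pax8 bind DNA mainly through a paired domain and keep a partial homeodomain, whereas Pax6 has both domains whole.

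Library totals ran from 63923829 to 70473901 counts in Suz12 cKO and from 48104653 to 79281431 counts in wild type. The submitters' design text states 14000000 to 20000000 reads per sample, which is fewer, so a count may not stand for 1 independent read. The floor of 3 counts used for genes at 0 covers counting error only. The targeted gene, Suz12, had 15.1 to 23.6 CPM (counts per 1000000 library counts, after TMM scaling) in Suz12 cKO and 56.3 to 73.9 CPM in wild type (edgeR adjusted p = 0.00134), and which cells or transcripts gave the counts that remained in Suz12 cKO was not tested. All 20 listed alveolar macrophage markers had counts in every library, with summed levels of 43139 to 48184 CPM in Suz12 cKO and 37435 to 43755 CPM in wild type; 7 of them were called higher and 3 lower. Of 7 tested neutrophil markers 4 were called higher, among them S100a8 and Csf3r, Ly6g and Camp had no count in any library, and the list summed to 186 to 253 CPM in Suz12 cKO and 114 to 140 CPM in wild type; the part of such cells in the results below was not tested. Haemoglobin RNA, before TMM scaling, summed to 192, 155 and 2.58 CPM in Suz12 cKO and to 3.23, 56.6, 5.17 and 2.29 CPM in wild type. Sftpc, a surfactant gene of alveolar epithelium, gave 4.53, 9.08 and 0 CPM in Suz12 cKO and gave 0, 10.6, 0 and 0.0412 CPM in wild type. Suz12 cKO libraries 1 and 2 and wild type library 2 thus stood apart in RNA of other lung and blood cells (hereafter the libraries high in tissue RNA). In bulk RNA, fewer cells of a type and less RNA per cell cannot be told apart.

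Of the 54 genes, 39 (72.2%) had at least 1 count in at least 1 library, against 66.4% of all genes in the table. Suz12 cKO libraries 1, 2 and 3 held counts for 25, 30 and 21 of the 54 genes, and wild type libraries 1 to 4 for 14, 19, 9 and 9. Every Suz12 cKO library therefore held more of these genes than any wild type library. Over all genes the share with a count was 55.9%, 60.1% and 52.6% in Suz12 cKO and 55.4%, 55.3%, 53.6% and 50% in wild type, and these ranges overlapped. Counts were found in 1 or more Suz12 cKO libraries and in none of the wild type for 16 of the 39 genes (41.0%), against 7.33% of all genes with a count. Of these 16 genes, 12 (75%) had their counts in Suz12 cKO libraries 1 and 2 alone, the pair high in tissue RNA, and 4 (Lhx8, Lhx9, Nkx2-5 and Six2) had counts in Suz12 cKO library 3; over all genes the share in that pair alone was 75.9%. Among the 4 libraries with little tissue RNA it was 6 of 24 (25%), against 2.93% of all genes, and within the 3 high ones it was 17 of 36 (47.2%), against 13.2% of all genes. The opposite pattern was seen for 2 genes, Nkx2-1 and En1 (5.13%), against 5.08% of all genes. Suz12 cKO library 2 alone supplied 6 of the 13 genes that had counts in exactly 1 library. Without it the number seen in Suz12 cKO but in no wild type library was 10 of 33 (30.3%), against 4.20% of all genes. Without library 1 it was 12 of 35 (34.3%, against 6.17%), and without library 3 it was 14 of 37 (37.8%, against 6.62%). Over the 54 genes and 7 libraries, 251 values were 0 and 10 lay between 1 and 5 counts.

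**Figure D1:**
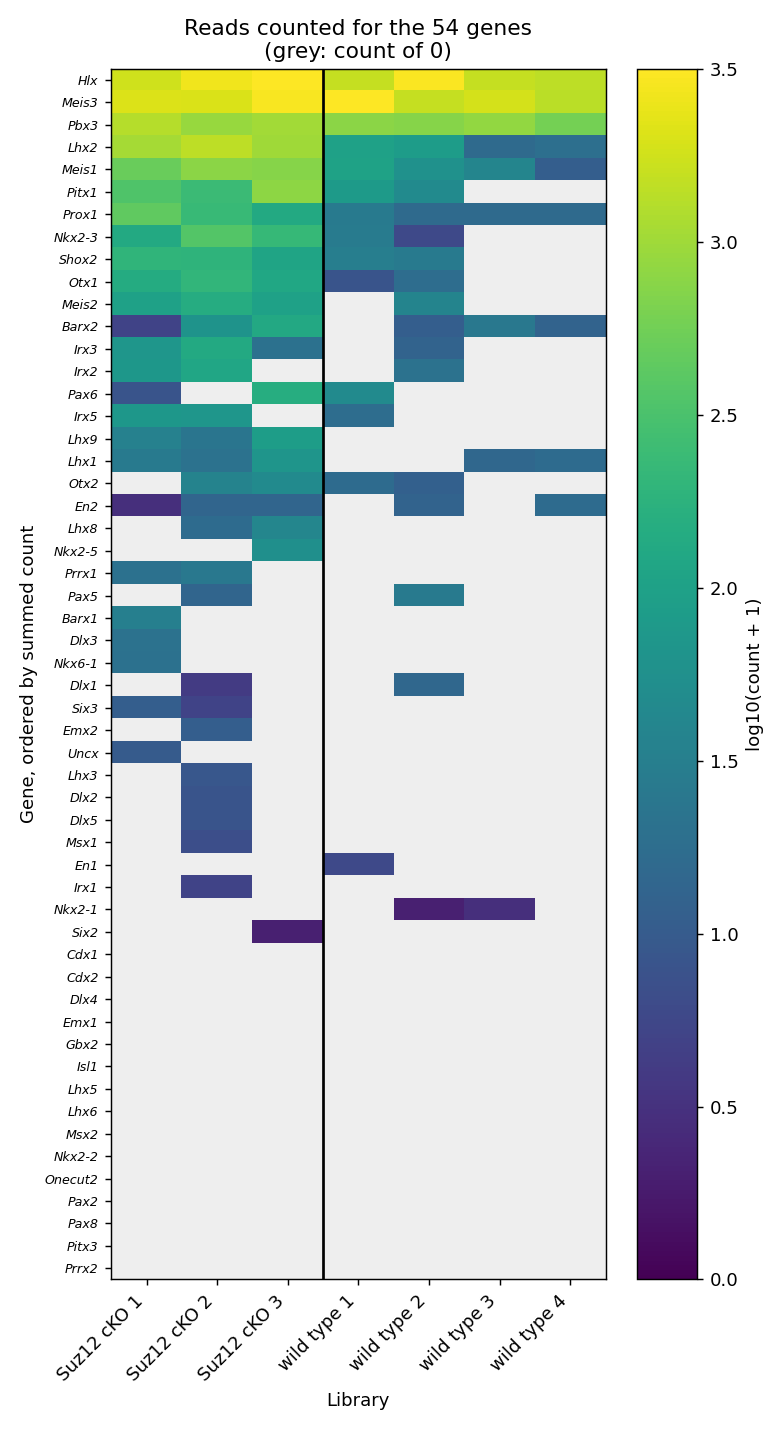
Read counts of the 54 genes, 1 row per gene and 1 column per library, with Suz12 cKO libraries left of wild type libraries; colour gives log10(count + 1), and grey marks a count of 0. The Suz12 cKO columns hold counts for 25, 30 and 21 genes, and the wild type columns for 14, 19, 9 and 9.

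Enough counts for the test across all genes were present for 19 of the 54 genes, against 53.1% of all genes in the table, and 13 of those 19 had no count in at least 1 wild type library. Of them 5 rose in Suz12 cKO: Lhx2, Meis1, Prox1, Nkx2-3 and Lhx9. That is 5 of 19, where 6.28% of all tested genes were called higher, and 5 of 54 (9.26%), where 3.33% of all genes in the table were. Among tested genes of low level (a mean below 1 on the log2 CPM scale) 3.05% were called higher. None of the 19 was called lower by edgeR's quasi-likelihood test at an adjusted p under 0.05, none had an unadjusted p under 0.05 in that direction, and DESeq2 called none lower. Of all tested genes 4.02% were called lower by edgeR and 5.87% by DESeq2. At an unadjusted p under 0.05, 9 of the 19 genes were higher, where 13.2% of all tested genes were higher and 11.3% lower. The number called higher was 3 without each of the Suz12 cKO libraries and without wild type library 3 or 4, 4 without wild type library 1, and 8 without wild type library 2. The fitted log2 fold change was above 0 for all 19, against 7278 of all 14436 tested genes, with a median of 3.61 against 0.00. A gene at or near 0 in wild type could enter the test only through its Suz12 cKO counts. Such a gene could also hardly be lower in Suz12 cKO. This share, this median and the numbers of the 19 that were higher or lower were therefore partly set by the filter on low counts. They do not describe the 54. When no filter was used, Nkx2-1, En1, Dlx1 and Pax5 were below 0, and the other genes with a count were above 0.

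**Figure D2:**
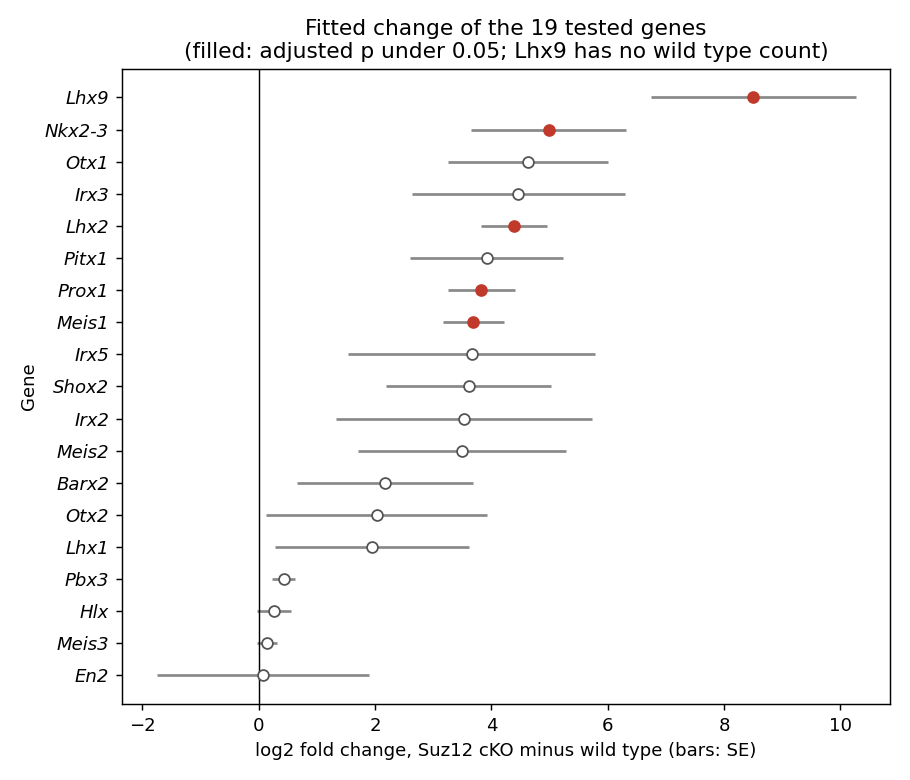
Fitted log2 fold change, Suz12 cKO over wild type, of the 19 tested genes with its standard error; filled points are the 5 genes called higher (edgeR quasi-likelihood test, Benjamini-Hochberg adjusted p under 0.05). Values run from 0.07 for En2 to 8.50 for Lhx9, whose wild type libraries are all at 0.

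Start regions of 3 of the genes that rose and of Meis3, which did not pass the test, are printed because they differ widely in CG content. Each is 250 bases before to 50 bases after a start listed for the gene in RefSeq (build GRCm38.p6), the most upstream one in the table of windows used, read 5′ to 3′ on the gene's strand, with each CG pair in capitals, since CG-rich starts are a known feature of many genes bound by Polycomb complexes. Lhx2 lies at chr2:38339031-38339330 (plus strand), Meis1 at chr11:19018920-19019219 (minus strand), Lhx9 at chr1:138842395-138842694 (minus strand) and Meis3 at chr7:16175145-16175444 (plus strand). Gene positions given with the values are of the same build. The Meis1, Lhx9 and Meis3 windows lie inside the gene's annotated span, so longer transcripts begin upstream of them and their starts are not shown.
Lhx2: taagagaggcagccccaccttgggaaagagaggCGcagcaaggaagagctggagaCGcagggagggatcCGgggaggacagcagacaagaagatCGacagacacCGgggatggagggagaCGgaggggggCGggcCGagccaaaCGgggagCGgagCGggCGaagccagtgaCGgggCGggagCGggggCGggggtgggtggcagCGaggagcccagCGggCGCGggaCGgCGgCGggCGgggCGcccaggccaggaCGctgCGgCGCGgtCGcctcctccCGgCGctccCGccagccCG
Meis1: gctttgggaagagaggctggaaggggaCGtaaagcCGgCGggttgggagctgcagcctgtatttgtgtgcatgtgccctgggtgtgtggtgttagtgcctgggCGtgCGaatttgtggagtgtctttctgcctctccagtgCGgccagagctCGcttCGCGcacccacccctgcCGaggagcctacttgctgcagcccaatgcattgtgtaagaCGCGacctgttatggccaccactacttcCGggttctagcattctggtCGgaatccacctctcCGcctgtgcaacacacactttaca
Lhx9: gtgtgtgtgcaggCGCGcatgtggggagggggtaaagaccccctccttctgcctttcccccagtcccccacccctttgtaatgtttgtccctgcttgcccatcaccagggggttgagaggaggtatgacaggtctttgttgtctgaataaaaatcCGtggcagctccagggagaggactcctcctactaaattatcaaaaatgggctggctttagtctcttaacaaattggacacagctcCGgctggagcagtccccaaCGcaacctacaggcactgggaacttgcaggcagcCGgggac
Meis3: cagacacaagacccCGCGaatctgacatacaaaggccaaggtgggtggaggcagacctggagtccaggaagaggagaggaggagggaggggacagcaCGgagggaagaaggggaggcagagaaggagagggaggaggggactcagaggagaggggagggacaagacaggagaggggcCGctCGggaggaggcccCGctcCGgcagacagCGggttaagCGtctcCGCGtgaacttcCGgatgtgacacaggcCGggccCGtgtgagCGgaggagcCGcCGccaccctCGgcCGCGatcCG
The Lhx2 window held 34 CG pairs and a GC content of 74.7%, the Meis3 window held 21, the Meis1 window held 15, and the Lhx9 window held 6. The median over 18458 genes with such a window was 13, and over the 10818 tested ones it was 20. These medians use the average over the annotated starts of each gene. On that measure the 5 genes that rose had a median of 15, and all of them but Lhx2 (31.5) were below 20. Prox1 had 19.5 CG pairs and Nkx2-3 had 15. The most upstream Prox1 window, which is not printed, held 25 CG pairs and was thus above 20. The counts of the windows shown may differ at other starts of the same gene. The letters TATAAA, searched on both strands, were found at 14.5% of genes with a window and, of the 5 genes that rose, at Prox1. Windows were held for 41 of the 54 genes, which is under 80%, so their median of 20 CG pairs need not hold for the whole set.

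Lhx2 encodes a LIM homeodomain protein of the forebrain, the eye and hair follicle stem cells (gene ID 16870, chr2:38339271-38369737). It had 16.7, 21.3 and 14.1 CPM in Suz12 cKO libraries 1 to 3 and 1.24, 1.39, 0.255 and 0.371 CPM in wild type libraries 1 to 4. All Suz12 cKO values were far above the highest wild type value. The difference was 4.39 ± 0.57 on the log2 scale (SE; adjusted p = 0.00262, edgeR quasi-likelihood test). Per gene length, Lhx2 was the highest of the 5 genes that rose, at a mean of 7.61 RPKM (CPM divided by gene length in kilobases) in Suz12 cKO and 0.357 RPKM in wild type.

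Lhx9, a LIM gene of the gonads, the limbs and the brain (gene ID 16876, chr1:138825186-138848839), had 34, 22 and 89 counts in the Suz12 cKO libraries and 0 in all 4 wild type libraries. In CPM these were 0.537, 0.335 and 1.25. With a floor of 3 counts assumed over the wild type group, its pooled level was 59.9-fold higher in Suz12 cKO. That value takes the pooled Suz12 cKO count as exact and each count as 1 read, so it is no firm lower bound. The gene was called higher (adjusted p = 0.0367, edgeR quasi-likelihood test). Its level was low, with a mean of 0.123 RPKM in Suz12 cKO. The call did not hold without most single libraries: the adjusted p ran from 0.0249 to 0.110 when each was left out, and was above 0.05 without each Suz12 cKO library and without wild type libraries 1, 3 and 4. Lhx1, the other LIM gene tested, which acts in the kidney and head, had 0.410, 0.305 and 0.923 CPM in Suz12 cKO and 0, 0, 0.238 and 0.330 CPM in wild type. Its ranges overlapped, and it did not pass the test (log2 fold change 1.94, adjusted p = 0.547 by edgeR).

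Meis1, the TALE gene required in blood stem cells (gene ID 17268, chr11:18880428-19019651), had 7.84, 12.0 and 10.3 CPM in Suz12 cKO and 1.27, 0.952, 0.647 and 0.206 CPM in wild type. The lowest Suz12 cKO library was above the highest wild type library. It rose by 3.69 ± 0.53 on the log2 scale (SE; adjusted p = 0.00381, edgeR quasi-likelihood test). Its exons share 896 bases with a gene annotated on the other strand, Gm16140, and 1029 bases with a gene on the same strand, Gm37818. The sources used here do not give the strand setting of the counting, and no such setting would tell reads of Gm37818 apart there. Of 10 listed markers of blood stem and progenitor cells 6 were tested and 1, Procr, was called higher. Hlf had no count in any library, and the list summed to 89.5 to 108 CPM in Suz12 cKO and 70.3 to 81.6 CPM in wild type. Most of it came from Prom1 and Procr. Prom1 averaged 48.9 CPM in Suz12 cKO and 52.5 CPM in wild type, and Procr averaged 34.7 and 13.4 CPM. Of the 6 tested markers, 3 had a log2 fold change above 0. The part of such cells in the Meis1 result was not tested.

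Prox1, which sets lymphatic endothelial identity and also acts in liver and lens (gene ID 19130, chr1:190118035-190170827), had 6.94, 3.49 and 1.88 CPM in Suz12 cKO and 0.336, 0.246, 0.255 and 0.309 CPM in wild type. The groups did not overlap, and the Suz12 cKO values were spread more widely than the wild type ones. The difference was 3.83 ± 0.58 on the log2 scale (SE; adjusted p = 0.00484, edgeR quasi-likelihood test). Within the 4 libraries low in haemoglobin RNA, of which Suz12 cKO library 3 is a lone sample assumed to vary like the wild type ones, the adjusted p was 0.236. Of 6 listed lymphatic endothelial markers 3 were tested and 1 was called higher. That was Flt4, a receptor of lymphatic vessels, with 2.34, 3.38 and 2.25 CPM in Suz12 cKO and 0.523, 0.164, 0.324 and 0.247 CPM in wild type, so that, like Prox1, it was higher in every Suz12 cKO library than in any wild type library. Reln and Ccl21a had no count in any library, and Lyve1 had 0.521, 1.10 and 0 CPM in Suz12 cKO and 0.0622, 1.61, 0 and 0 CPM in wild type. The list summed to 113 to 181 CPM in Suz12 cKO and 38.3 to 126 CPM in wild type, most of it from Pdpn, which had 178, 138 and 111 CPM in Suz12 cKO and 47.1, 125, 42.2 and 38.0 CPM in wild type. The part of lymphatic cells in the Prox1 result was not tested.

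Nkx2-3, an NK-like gene of spleen and gut mesenchyme and vessels (gene ID 18089, chr19:43612325-43615892), had 2.07, 5.63 and 3.11 CPM in Suz12 cKO and 0.348, 0.0821, 0 and 0 CPM in wild type. Every Suz12 cKO library was above every wild type library. It rose by 4.98 ± 1.33 on the log2 scale (SE; adjusted p = 0.0475, edgeR quasi-likelihood test), close to the threshold. With each library left out in turn the log2 fold change ran from 4.53 to 6.88, the highest without wild type library 1, and the adjusted p ran from 0.0243 to 0.178, and it was above 0.05 without each Suz12 cKO library and without wild type libraries 3 and 4.

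**Figure D3:**
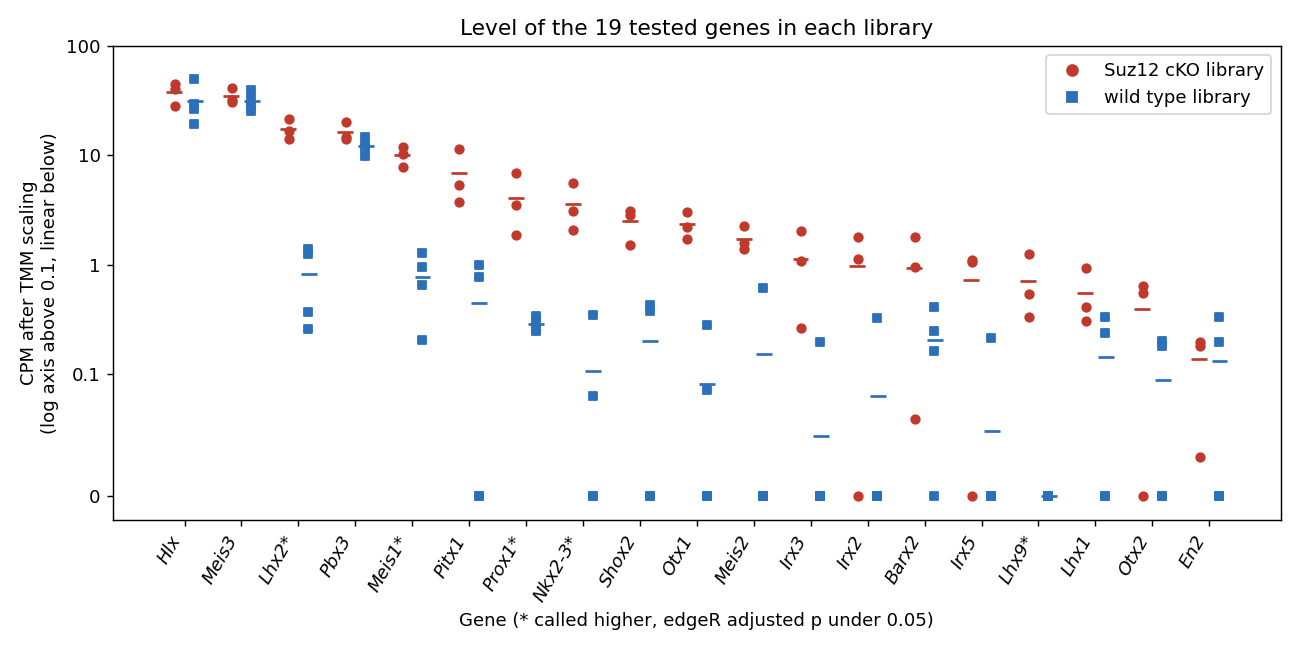
Level of each tested gene in each library in CPM (TMM-scaled), circles for Suz12 cKO and squares for wild type, on an axis that is log above 0.1 and linear below; short lines are group means and asterisks mark genes called higher. Lhx2, Meis1, Prox1, Nkx2-3 and Lhx9 have all 3 Suz12 cKO circles above all 4 wild type squares, whereas Meis3, Hlx and Pbx3 are high in both genotypes.

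A group of 3 genes of the set was present in all libraries at levels that did not pass the test. Meis3, a TALE gene of hindbrain and gut development, had 32.3, 31.0 and 40.9 CPM in Suz12 cKO and 39.2, 25.6, 32.7 and 28.5 CPM in wild type. Hlx, an NK-like gene that acts in gut and liver mesenchyme and in T cells, had 28.4, 40.5 and 44.5 CPM in Suz12 cKO and 19.4, 49.7, 26.6 and 29.7 CPM in wild type. Pbx3, a TALE partner of MEIS and HOX proteins, had 20.2, 14.1 and 14.7 CPM in Suz12 cKO and 9.78, 12.1, 14.7 and 12.0 CPM in wild type. In all 3 the genotypes overlapped, and the log2 fold changes were 0.14 ± 0.17 for Meis3, 0.27 ± 0.29 for Hlx and 0.43 ± 0.20 for Pbx3 (SE; edgeR adjusted p = 0.680, 0.655 and 0.225). Per length they were the highest of the tested genes in wild type macrophages, at 17.7 RPKM for Meis3, 14.6 RPKM for Hlx and 5.08 RPKM for Pbx3, and Lhx2 followed at 0.357 RPKM. In Suz12 cKO the order was Meis3 at 19.5 RPKM, Hlx at 17.6 RPKM, Lhx2 at 7.61 RPKM and Pbx3 at 6.84 RPKM. The CPM of all tested genes summed to 131, 147 and 151 in Suz12 cKO and to 73.4, 93.3, 75.8 and 72.0 in wild type.

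**Figure D4:**
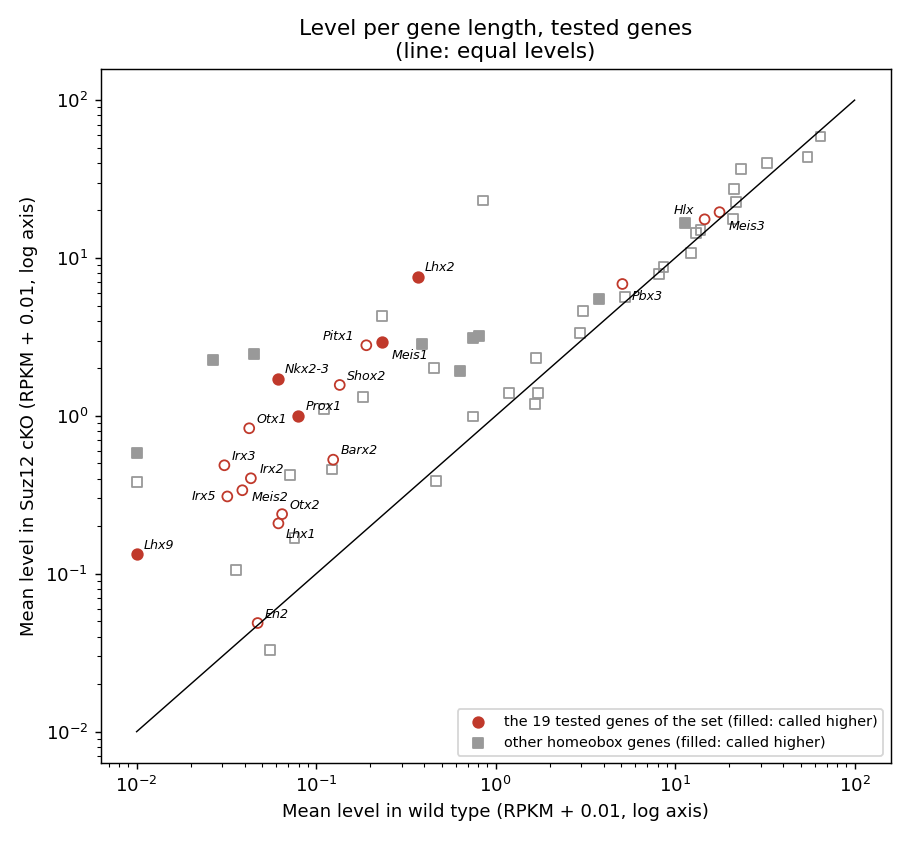
Mean level per gene length (RPKM + 0.01, both axes log) in Suz12 cKO on the vertical axis and in wild type on the horizontal axis, with circles for the 19 tested genes of the set and squares for 41 other tested homeobox genes; filled marks were called higher. Meis3, Hlx and Pbx3 sit near the line of equal levels, and Lhx2 lies at 7.61 RPKM in Suz12 cKO and 0.357 RPKM in wild type.

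Ranges that did not overlap, with Suz12 cKO higher, were found for 10 of the 39 genes with a count (25.6%), against 11.4% of all genes with a count. The reverse was found for none, against 9.29% of all genes. It could not occur for a gene at 0 in any wild type library, as most of the 39 were, so nothing is drawn from its absence. Besides the 5 genes that rose, the 10 with Suz12 cKO higher were Pitx1, Otx1, Shox2, Meis2 and Irx3, which did not pass the test and were picked out after their values were seen. Pitx1, which sets hindlimb identity and acts in the pituitary, had 5.40, 3.73 and 11.4 CPM in Suz12 cKO and 0.996, 0.771, 0 and 0 CPM in wild type (log2 fold change 3.92 ± 1.32, SE; edgeR adjusted p = 0.0992). Otx1, a forebrain gene, had 2.23, 3.06 and 1.71 CPM in Suz12 cKO and 0.0871, 0.279, 0 and 0 CPM in wild type (4.63 ± 1.38, SE; edgeR adjusted p = 0.0687). Both had no count in wild type libraries 3 and 4, and DESeq2, which called 9.65% of all tested genes higher, called Otx1 (adjusted p = 9.2e-04).

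Shox2, which acts in limb bones and the heart's pacemaker, had 3.08, 2.86 and 1.53 CPM in Suz12 cKO and 0.373, 0.427, 0 and 0 CPM in wild type. It did not pass edgeR's test (log2 fold change 3.61 ± 1.41, SE; adjusted p = 0.152) but passed that of DESeq2 (adjusted p = 0.0241). Shox2 shares 153 exonic bases with Rsrc1, whose counts ran from 2703 to 2929 in Suz12 cKO and from 1245 to 2833 in wild type, so some of its counts may belong to Rsrc1. Meis2, a TALE gene close to Meis1 in sequence, had 1.56, 2.24 and 1.39 CPM in Suz12 cKO and 0, 0.607, 0 and 0 CPM in wild type (3.49 ± 1.79, SE; edgeR adjusted p = 0.280). Irx3, an Iroquois gene of neural tube, heart and limb, had 1.09, 2.03 and 0.266 CPM in Suz12 cKO and 0, 0.197, 0 and 0 CPM in wild type (4.46 ± 1.83, SE; edgeR adjusted p = 0.172). Wild type library 2, which was high in haemoglobin and Sftpc RNA, was the sole wild type library with Meis2 or Irx3. Without that library Meis2 (adjusted p = 0.00527), Irx3 (0.0193) and Otx1 (0.0139) were called higher by edgeR, for 8 calls in all, against 10.7% of all genes then tested. Their fitted log2 fold changes were then 9.80, 9.18 and 6.08, and those of Meis2 and Irx3 are no measure of size, because no count was then left in wild type.

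The other tested genes overlapped between genotypes. Irx2 had 1.12, 1.78 and 0 CPM in Suz12 cKO and 0, 0.328, 0 and 0 CPM in wild type, and Irx5, which acts in heart and retina, had 1.10, 1.05 and 0 CPM in Suz12 cKO and 0.212, 0, 0 and 0 CPM in wild type. Neither passed edgeR's test (adjusted p = 0.384 for Irx2 and 0.347 for Irx5), and both were absent from Suz12 cKO library 3. For Irx2 the libraries with counts were the 3 that were high in haemoglobin and Sftpc RNA, and for Irx5 the Suz12 cKO libraries with counts were the pair that was high in it. The part of other lung cells in these counts was not tested. Barx2, Otx2 and En2, genes of muscle and epithelia, of the embryonic head, and of the midbrain and hindbrain, had log2 fold changes of 2.17, 2.03 and 0.07 (edgeR adjusted p = 0.439, 0.589 and 0.989).

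Several of these genes act in connective tissue of the embryo, so its markers were set beside them. Of 17 listed markers of fibroblasts and smooth muscle, 9 were tested, 1 (Pdgfra) was called higher and none lower, where 2 had an unadjusted p under 0.05 in the higher direction and 1 in the lower. Their summed level was 106 to 145 CPM in Suz12 cKO and 48.7 to 108 CPM in wild type, most of it from Cspg4 and, in Suz12 cKO, Pdgfra. Pdgfra had 29.6, 37.0 and 33.6 CPM in Suz12 cKO and 2.39, 1.30, 0.272 and 0 CPM in wild type, and Pdgfrb had 0.836, 0.579 and 0.770 CPM in Suz12 cKO and 0, 0.263, 0 and 0 CPM in wild type. In Suz12 cKO library 3, 11 of the 17 markers were at 0, among them the collagen and matrix genes Col1a1, Col1a2, Col3a1 and Dcn, whereas Pdgfra, Pdgfrb, Cspg4, Tagln, Acta2 and Myh11 had counts. Col3a1 had 1.10, 1.32 and 0 CPM in Suz12 cKO and 0, 8.16, 0 and 0.0206 CPM in wild type. The part of connective tissue cells in these genes' counts was not tested.

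For 20 genes with a count, too few libraries reached the level needed for the test, and their values are given as counts. Those of Lhx3, Six3, Nkx6-1, Dlx2, Dlx3, Dlx5, Msx1, Emx2, Irx1, Barx1, Prrx1 and Uncx came from Suz12 cKO libraries 1 and 2 alone, which were high in tissue RNA, and the part of other cells in them was not tested. Nkx2-5, the heart factor, had 54 counts in Suz12 cKO library 3 and 0 in all other libraries. Lhx8, a forebrain gene, had 0, 16 and 39 counts in Suz12 cKO, and Prrx1, a gene of limb mesenchyme, had 19, 24 and 0; both were at 0 in the wild type libraries. Barx1, a stomach gene, had 32 counts in Suz12 cKO library 1 and 0 elsewhere. Each of these 4 genes lacked counts in at least 1 Suz12 cKO library, so the groups overlapped at 0.

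The Dlx, Msx and Emx genes of the face, limbs and forebrain gave few counts. Dlx2 (7), Dlx5 (7), Msx1 (6) and Emx2 (10) had theirs in Suz12 cKO library 2, as did the motor neuron and pituitary gene Lhx3 (8) and Irx1 (4). Dlx3 (20), the pancreas and neural tube gene Nkx6-1 (19) and Uncx (9), a gene of the spine, had theirs in Suz12 cKO library 1. Dlx1 had 3 counts in Suz12 cKO library 2 and 14 in wild type library 2. Among the SINE genes, Six2, of the kidney, had 1 count in Suz12 cKO library 3. Six3, of the forebrain and eye, had 10, 4 and 0 counts in Suz12 cKO and 0 in wild type. The antisense gene Six3os1, which the table lists separately, had 32, 18 and 29 counts in Suz12 cKO and 0 in wild type, and without the strand setting reads from these 2 genes cannot be told apart where they overlap.

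Pax6, the eye and brain gene, had 7, 0 and 150 counts in Suz12 cKO and 47, 0, 0 and 0 in wild type, with both extremes in single libraries. Pax5, which B cells need, had 0, 13 and 0 counts in Suz12 cKO and 0, 27, 0 and 0 in wild type. Of the 10 listed B cell markers 5 were tested and 1, Blnk, was called higher; their summed level was 22.7 to 31.1 CPM in Suz12 cKO and 5.88 to 18.9 CPM in wild type. The part of B cells in the Pax5 counts was not tested. En1, of the midbrain and limbs, had 5 counts in wild type library 1 and 0 in the others. Nkx2-1, which lung epithelium needs, had 0 counts in all Suz12 cKO libraries and 0, 1, 2 and 0 in wild type, although Sftpc RNA reached 9.08 CPM in Suz12 cKO library 2 and 10.6 CPM in wild type library 2. Of 18 listed alveolar epithelial markers, 2 (Napsa and Cdh1) were called higher, and the list summed to 420 to 451 CPM in Suz12 cKO and 278 to 377 CPM in wild type, most of it from Abca3, Napsa and Cdh1.

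No count was found in any library for 15 genes. They were the LIM genes Lhx5, Lhx6 and Isl1, the NK-like and related genes Nkx2-2, Dlx4, Msx2 and Emx1, the paired-type genes Prrx2 and Pitx3, Onecut2 of liver and pancreas, Gbx2 of the hindbrain boundary, the gut genes Cdx1 and Cdx2, and the kidney and thyroid genes Pax2 and Pax8. By family, all 8 TALE genes had counts and 7 were tested, of which 1 was called higher. Of the 8 LIM genes 5 had counts, 3 were tested and 2 were called higher. Of the 19 NK-like and related genes, 15 had counts, 4 were tested and 1 was called higher. Of the 9 paired-type genes 7 had counts and 4 were tested, with none called higher by edgeR. DESeq2 called 2 of those, Otx1 and Shox2. Over all tested genes edgeR called 6.28% higher and DESeq2 9.65%. These families hold too few tested genes to be compared with each other or with those shares. Of neighbouring genes on a chromosome, Dlx1 and Dlx2 (9.43 kb apart) both had counts in Suz12 cKO library 2, and Irx3 and Irx5 (556 kb apart) both had counts in Suz12 cKO libraries 1 and 2. Six3 and Six2 (36.5 kb apart) had counts in no library in common.

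A wider list of 122 other homeobox genes, from textbook families, gave 120 in the table, 72 with a count and 41 tested. Of these 41, 9 (22%) were called higher and none lower, against 6.28% and 4.02% of all tested genes. At an unadjusted p under 0.05 by edgeR, 18 were higher and 1 lower, against 13.2% and 11.3% of all tested genes. The median log2 fold change was 0.55. Here too, a gene at or near 0 in wild type could enter the test only through its Suz12 cKO counts. The 9 called higher included Cers4, the tendon gene Mkx, Zeb1, which represses epithelial genes, Cux1, Alx1, the motor neuron gene Isl2 and Pou6f1. Alx1, of the face, averaged 6.14 ± 2.35 CPM in Suz12 cKO and 0.0871 ± 0.174 CPM in wild type (SD, n = 3 and 4 libraries; edgeR adjusted p = 0.0269). Cers4, a ceramide synthase with a homeobox-like domain, averaged 8.27 ± 3.58 CPM in Suz12 cKO and 0.0605 ± 0.0514 CPM in wild type (SD, n = 3 and 4 libraries; edgeR adjusted p = 0.00128). The 3 of the wider list with the highest wild type level per length, Cers2, Cers5 and Zeb2, had 58.8, 43.8 and 40.0 RPKM in Suz12 cKO and 64.6, 54.7 and 32.6 RPKM in wild type, and none of them passed the test. The Hox genes, set beside these for their shared homeodomain, had 24 of 39 tested and 10 (41.7%) called higher, against 6.28% of all tested genes. The filter on low counts sets the same limit on this share. Their summed levels were 112, 117 and 109 CPM in Suz12 cKO and 15.1, 10.7, 3.17 and 5.86 CPM in wild type.

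Lhx2 and Meis1 were called higher under each alternative fit that was run, 14 in all, including each library left out. Prox1 was called in all of them except the fit within the 4 libraries low in haemoglobin RNA. Nkx2-3 was called in 7 of the 14 and Lhx9 in 5. Within the 3 libraries high in haemoglobin RNA, Lhx2, Meis1, Prox1, Nkx2-3 and Pitx1 (adjusted p = 0.0329) were called higher by edgeR, where 4.73% of all tested genes were. Within the 4 low ones, Lhx2 and Meis1 were, where 4.08% of all tested genes were. Each of these fits had 1 lone library of a genotype.

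**Figure D5:**
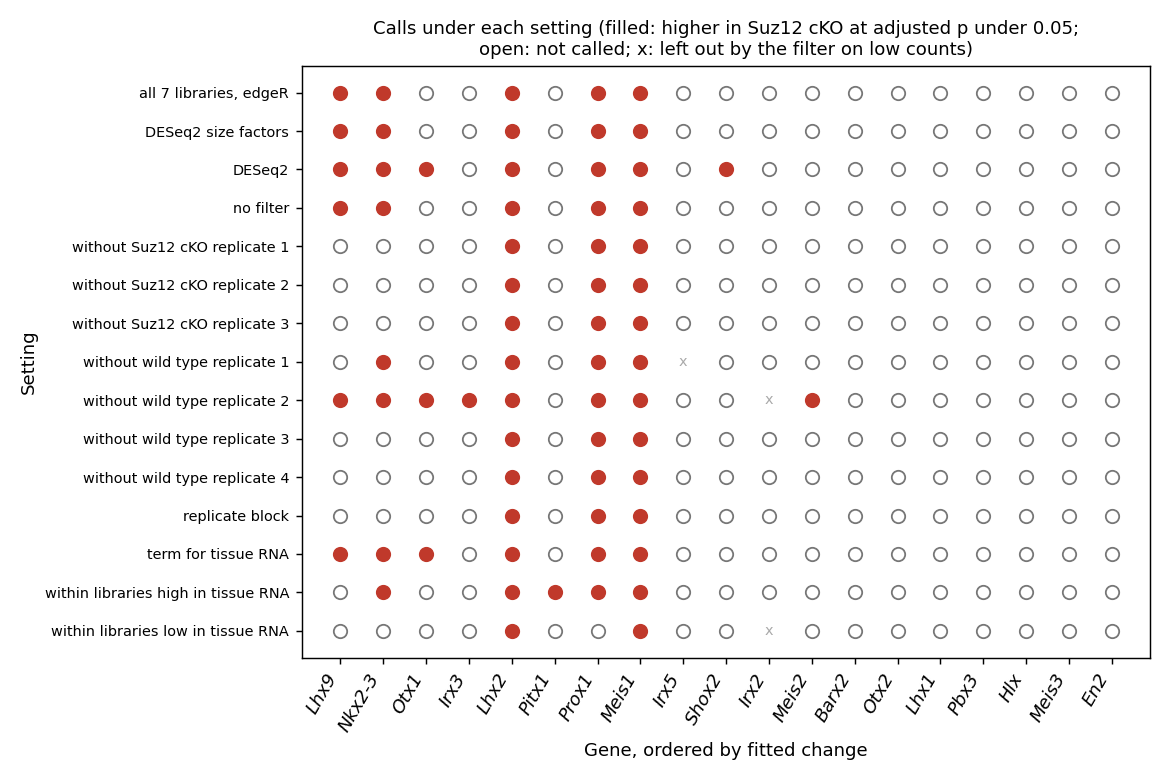
Which of the 19 tested genes (columns) were called higher in Suz12 cKO under each fit (rows), filled where the adjusted p is under 0.05 and marked x where the filter on low counts left the gene out. Lhx2 and Meis1 are filled in every row, and the number of filled genes per row runs from 2 to 8.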

How the data were processed

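PolyA RNA of sorted alveolar macrophages was sequenced as single-end reads of 85 bases, per the labels. The deposited values are counts of reads per gene (Entrez gene ID) that the authors made with featureCounts on build mm10, per the submitters' processing notes, with each gene's length in another deposited column; the aligner, annotation and strand setting are not stated in the sources used here. Gene IDs were named with RefSeq GRCm38.p6 (25275 of 27179 matched; the others held 0.829% of counts).

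Genotypes were compared with edgeR 4.0.16 in R 4.3.3 (limma 3.58.1): TMM scaling, filterByExpr with a minimum count of 10 and a minimum total of 15 (14436 genes tested), the quasi-likelihood test with genotype as the sole term, and Benjamini-Hochberg adjustment over all tested genes, called at an adjusted p under 0.05. Standard errors were taken from the fold change and its F value. Alternatives were DESeq2 1.42.0, its size factors, no filter, each library left out, a replicate block, a term for tissue RNA (haemoglobin above 20 CPM) and fits within high and low libraries. The procedure was also run on simulated counts with known changes at randomly chosen tested genes. That simulation modelled neither genes absent from 1 genotype nor the uneven tissue RNA, so it does not bear on those features of the data.

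The genes and lists were chosen with earlier results of these data known. Per-library values were given for genes that were called and for the 5 highest tested genes per length in each genotype; others were named as stated in the text. Exon overlaps came from GENCODE vM21. Replicates of a genotype correlated at 0.916 to 0.969 and differed by more than sampling noise, so none was counted as a copy. Some genes of the lists are not reported here.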

Additional observations from a re-analysis of the deposited data

Results flagged for a closer look

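In the wild type group of 4, a gap test (Dixon, 95% level) was run on the CPM of the 19 tested genes. It singled out 4 values that lay far from the other 3. The usual chance rate of about 1 in 20 groups does not apply here. A gene with counts in 1 wild type library alone is always singled out. Meis2 was at 0.607 CPM in wild type library 2 and at 0 in the other wild type libraries. Irx2 was at 0.328 CPM and Irx3 at 0.197 CPM in the same library, and at 0 in the others. Irx5 was at 0.212 CPM in wild type library 1 and at 0 in the others. In all 4 cases the gap was the whole range, because the other 3 values were 0. Wild type library 2 also held the most haemoglobin RNA of its group (56.6 CPM), and its part in these values was not tested.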

How the results depend on the processing

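Of 263 fold changes of single tested genes under alternative settings, 231 kept their direction and their side of the threshold, 17 were weaker, 7 stronger and 8 reversed. Of the 54 genes, 3 were called higher with a replicate block and 2 among the low libraries (those with little haemoglobin RNA); leaving out each library gave 3 to 8. The same 5 calls were made with DESeq2's size factors, without the filter and, with Otx1 added (adjusted p = 0.0422, edgeR), with the term for tissue RNA. Over all tested genes, 1393 were called higher by DESeq2 and 549 with the block, against 906; leaving out each library gave 447 to 1515, with 479, 447 and 562 without Suz12 cKO libraries 1, 2 and 3, 546 without wild type library 3 and 1515 without wild type library 2. Genes called lower were 261 with the block, 328 within the high and 367 within the low libraries, against 580, and 268 (without Suz12 cKO library 2) to 885 (without wild type library 2) with a library left out. With a library left out, 5 of 46 tested other homeobox genes (without Suz12 cKO library 3) to 16 of 40 (without wild type library 2) were called higher. Over all genes these 2 fits called 562 of 15083 and 1515 of 14117 higher. The median log2 fold change of the tested genes was 3.10 within the high libraries and 3.19 to 3.77 with a library left out. Of the 54 genes, 20 had a count in at least 3 libraries and 30 had at least 10 counts in 1 library. With a library left out, the genes with counts in Suz12 cKO and in no wild type library numbered 10 to 21 (4.20% to 10.5% of all genes) and those with ranges apart 10 to 14 (11.4% of all genes with all libraries, up to 17.9% without Suz12 cKO library 3). Within the high and low libraries, where a genotype has 1 library, 17 and 20 had ranges apart (35.8% and 33.7% of all genes), and 6 had counts in Suz12 cKO alone within the low ones. These repeats were added after the data were seen. With a library left out, the Suz12 log2 fold change ran from -1.78 to -1.50.

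Directions turned for genes that were not called under any setting: Meis3 without Suz12 cKO library 3 (-0.0076; -0.0076 to 0.26 with each library left out), Hlx within the high libraries (-0.53), Irx5 within the low ones (-5.25), and En2 within the high ones (-0.77) and without Suz12 cKO library 2 (-0.29) or 3 (-0.20) or wild type library 1 (-0.35) or 3 (-0.36; -0.36 to 1.05 with each library left out). The cause was not tested. Irx5 without wild type library 1, and Irx2 without wild type library 2 and within the low libraries, gave no value, since the filter left them out.

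Replicate numbers are shared by the genotypes' labels, but libraries with the same number deviated together with correlations of -0.041, 0.242 and 0.158, and not every library correlated best with its own number, so the numbers were not taken as pairs. Under the block Lhx2, Meis1 and Prox1 were called (adjusted p = 0.00851, 0.0107 and 0.0288) and Nkx2-3 and Lhx9 were not (adjusted p = 0.0915 and 0.175; edgeR). With 3 and 4 libraries per genotype, values near 0 counts limit what can be said of most of the 54 genes.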
